A study of Mus musculus with 5 samples.

Results

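The EGR and NR4A genes are 6 transcription factor genes, Egr1, Egr2, Egr3, Nr4a1, Nr4a2 and Nr4a3, which T cells switch on within minutes to hours of antigen receptor engagement. They were chosen by name, with earlier results of these data known, and each was read from the probe set annotated with that symbol alone. All 6 were measured, each by 1 probe set, among 19937 named genes. The samples were CD4 T cells with low surface CD44 (CD45+CD3+CD4+CD44low) sorted out of mouse colon lamina propria, the tissue layer under the gut epithelium, and their RNA was hybridised to 5 Affymetrix arrays. The 3 conditional arrays came from CD4cre/Cnb1flox mice, in which a CD4-driven Cre recombinase acts on a floxed Cnb1 gene. The 2 control arrays came from CD4neg/Cnb1flox mice, which carry the floxed gene without Cre and are labelled control WT. By the series text, 3 independent experiments used 3 to 5 mice a group. The age of the mice is not stated, nor is pooling of several mice on an array. Nothing in the labels says that arrays of 1 group came from separate animals, so the spread behind each p-value is that of these samples and may be technical. Cre driven by CD4 is active from the thymocyte stage at which CD4 and CD8 are both present, and deletion can therefore precede arrival in the gut.

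Cnb1 (gene symbol Ppp3r1) is the regulatory subunit of calcineurin, the calcium-dependent phosphatase that releases NFAT factors into the nucleus. EGR proteins are zinc finger activators whose genes are driven mainly by the Ras and ERK arm of receptor signalling through serum response factor, and Egr2 and Egr3 in T cells also depend on calcineurin and NFAT. In T cells EGR2 and EGR3 are known for restraining activation and for inducing genes of anergy. The NR4A proteins are orphan nuclear receptors. Their genes respond to calcium through calcineurin, NFAT, MEF2 and CREB, and they are linked to regulatory T cells, tolerance and exhaustion. Both families are also immediate-early genes, which respond to handling and enzymatic dissociation of tissue.

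The arrays differed in ways that touch the results. Ppp3r1 lay between 8.64 and 8.83 on the log2 scale in conditional and at 8.99 and 8.60 in control replicates 1 and 2, a difference of -0.05 ± 0.159 (SE, limma, adjusted p = 0.927), and the labels do not name the deleted exons, so this level may check nothing about the deletion. The T cell marker list, of which 12 of 15 genes were measured, had a mean log2 level of 8.54 in control replicate 1 and between 10.97 and 11.34 on the other 4 arrays. Cd3d, Cd3e and Cd3g, chains of the T cell receptor complex, stood at the 40.2, 82.3 and 71.8 percentiles of all genes in control replicate 1, and all 3 were at or above the 84.7 percentile on every other array. Epithelial markers averaged 9.88 in control replicate 1 against 7.47 to 8.40 elsewhere, and stromal and endothelial markers 10.73 against 8.49 to 9.55. The keratin gene Krt8 was at 12.59 in control replicate 1 and between 8.85 and 10.08 on the other arrays. The part of these cell types in the values below was not tested, so each result is given against each control array as well. In RNA from a sorted population, fewer cells of a type and less RNA per cell cannot be told apart. No call against background was available for these arrays.

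In conditional cells, 4 of the 6 genes lay below both controls on all 3 arrays: Egr1, Egr2, Egr3 and Nr4a1. Over all genes, 13.1% lay fully below both controls and 17.4% fully above them. Egr2 differed most, at -1.22 on the log2 scale, followed by Nr4a1 at -0.94, Egr1 at -0.77 and Egr3 at -0.65. Nr4a2, at -0.62, and Nr4a3, at 0.06, overlapped between groups because the control arrays read them far apart. None of the 6 passed an adjusted p of 0.05 over all genes in limma, where 83 genes passed (0.416%), 74 higher (0.371%) and 9 lower (0.0451%). Another quantile normalization gave 46 higher and 2 lower, and array weights 13 higher and 0 lower (limma, 2247 genes at an unadjusted p of 0.05). At an unadjusted p of 0.05, 3 of the 6 were lower (Egr2, Nr4a1 and Egr3), against 5.91% of all genes. With 3 arrays against 2, an exact permutation test could not give a two-sided p under 0.1.

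**Figure D1:**
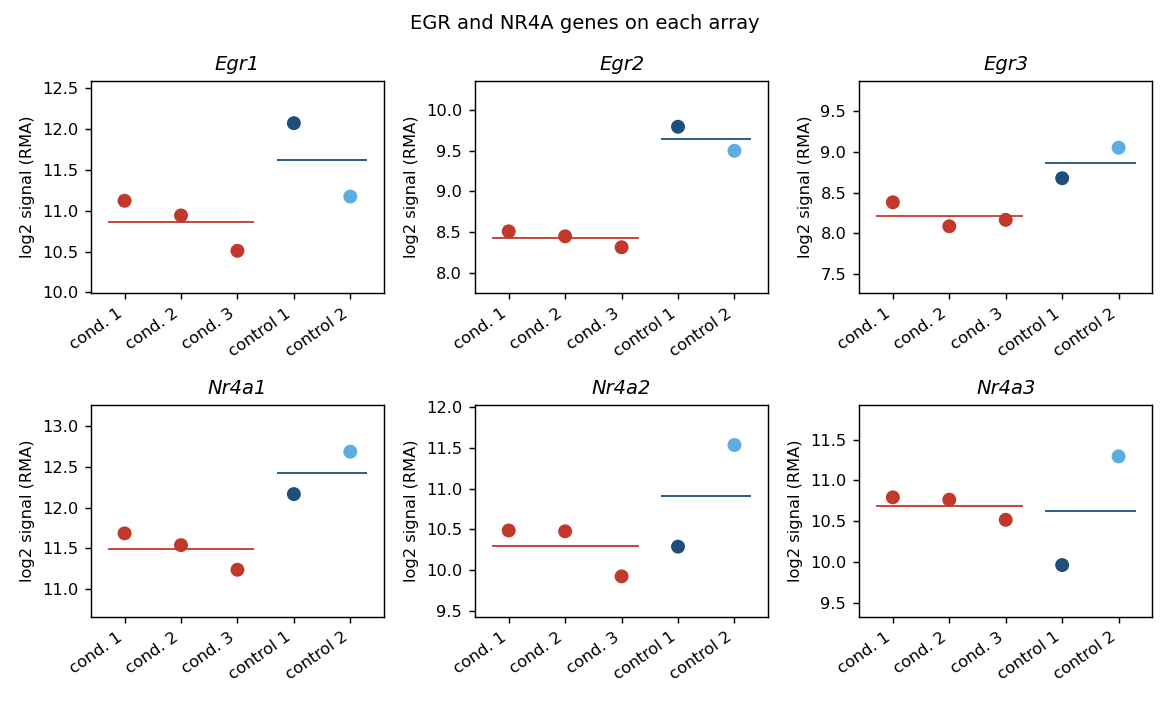
Log2 signal of each gene (vertical axis, RMA) on the 3 conditional arrays (red), control replicate 1 (dark blue) and control replicate 2 (light blue). Lines are group means, and every panel spans the same log2 range. All conditional points lie below both controls for Egr1, Egr2, Egr3 and Nr4a1, whereas the control points enclose the conditional points of Nr4a3.

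Among the EGR genes, Egr1 encodes the most widely induced member, a growth factor and stress-responsive activator. Its log2 level was 11.12, 10.94 and 10.51 in conditional replicates 1, 2 and 3, and 12.07 and 11.17 in control replicates 1 and 2. Control replicate 1 stood alone at the top, and control replicate 2 was barely above the highest conditional array. The group means were 10.86 ± 0.316 (SD, n = 3) and 11.62 ± 0.637 (SD, n = 2), a 1.70-fold difference that did not pass (limma, adjusted p = 0.384, 95% confidence interval from -1.61 to 0.07 on the log2 scale). With control replicate 1 as the only reference the difference was -1.22, and with control replicate 2 it was -0.32.

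Egr2 encodes the EGR factor most closely tied to T cell anergy and to limiting effector responses. Its log2 level was 8.51, 8.45 and 8.32 in conditional replicates 1, 2 and 3, and 9.79 and 9.50 in control replicates 1 and 2. The groups were well apart, with a gap wider than the spread within either of them. The means were 8.43 ± 0.0998 (SD, n = 3) against 9.65 ± 0.208 (SD, n = 2), so Egr2 was 2.33-fold lower in conditional cells, with a confidence interval from -1.58 to -0.86 on the log2 scale. The limma adjusted p was 0.0546, just short of the threshold. In other limma fits on the same or fewer arrays it was 0.0426 with each array centred on its median, 0.137 with array weights, 0.207 with the replicate block, and 0.271, 0.388 and 0.287 without conditional replicates 1, 2 and 3. The size of the difference was at the 96.0 percentile of all genes. Egr2 was the member least dependent on the choice of control, at -1.37 against replicate 1 and -1.07 against replicate 2.

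Egr3, which acts with Egr2 in T cells and is partly redundant with it, was at 8.38, 8.09 and 8.17 in conditional replicates 1, 2 and 3, and at 8.68 and 9.05 in control replicates 1 and 2. The groups did not overlap, but the nearest arrays, conditional replicate 1 and control replicate 1, lay close together. The means were 8.21 ± 0.152 (SD, n = 3) and 8.86 ± 0.265 (SD, n = 2), 1.57-fold apart (limma, adjusted p = 0.191, interval from -1.08 to -0.22). Against the single controls the difference was -0.46 for replicate 1 and -0.84 for replicate 2.

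Among the NR4A genes, Nr4a1 encodes NUR77, whose level is widely used as a readout of T cell receptor signal strength. Its log2 level was 11.68, 11.54 and 11.24 in conditional replicates 1, 2 and 3, and 12.17 and 12.69 in control replicates 1 and 2. All conditional arrays were below both controls, and control replicate 2 was the highest. The means were 11.49 ± 0.228 (SD, n = 3) and 12.43 ± 0.368 (SD, n = 2), a 1.92-fold lower level in conditional cells that did not pass (limma, adjusted p = 0.166, interval from -1.50 to -0.38). Taken singly, control replicate 1 gave a difference of -0.68 and control replicate 2 one of -1.20.

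Nr4a2, which encodes NURR1, was at 10.49, 10.48 and 9.92 in conditional replicates 1, 2 and 3, and at 10.29 and 11.53 in control replicates 1 and 2. Control replicate 1 lay within the conditional range, and control replicate 2 was above every other array. The difference of -0.62 (limma, adjusted p = 0.565, interval from -1.67 to 0.44) was therefore the average of 0.0072 against replicate 1 and -1.24 against replicate 2.

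Nr4a3, which encodes NOR1, was at 10.79, 10.76 and 10.52 in conditional replicates 1, 2 and 3, and at 9.96 and 11.30 in control replicates 1 and 2. The conditional arrays sat together between the controls, an order with control replicate 2 on top that 10.9% of all genes shared. The difference was 0.06 (limma, adjusted p = 0.967, interval from -0.97 to 1.09), made of 0.73 for control replicate 1 and -0.60 for control replicate 2. Its group means were 10.69 ± 0.152 (SD, n = 3) and 10.63 ± 0.943 (SD, n = 2), the widest control spread of the 6 genes.

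**Figure D2:**
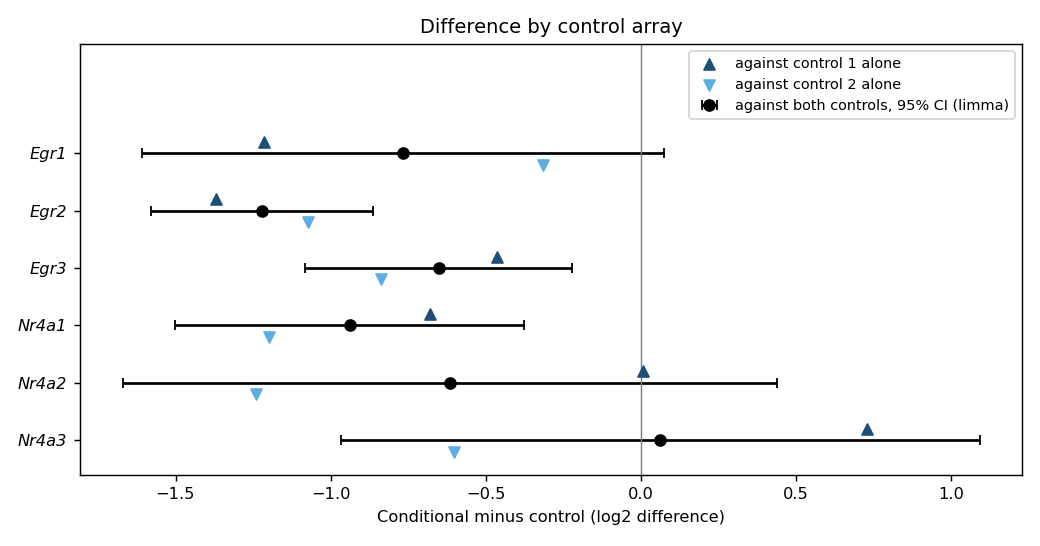
Conditional minus control log2 difference of each gene (horizontal axis). Black points with bars are the difference from both controls with its 95% confidence interval from limma, and triangles are the conditional mean minus control replicate 1 (dark, upward) or control replicate 2 (light, downward). The triangles are closest together for Egr2 and lie on opposite sides of 0 for Nr4a3.

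The signed gap between the control arrays was lower for every EGR gene than for any NR4A gene. Egr3, however, had the sign of the NR4A genes. Control replicate 2 minus control replicate 1 was -0.90 for Egr1 and -0.29 for Egr2, then 0.37 for Egr3, 0.52 for Nr4a1, 1.25 for Nr4a2 and 1.33 for Nr4a3. The size of the gap was at the 91.0 percentile of all genes for Nr4a3, 90.1 for Nr4a2 and 84.8 for Egr1, and at the 52.3 percentile for Egr2, whose gap was close to the median size of 0.277. The T cell markers had a median gap of 2.73, in the direction of Egr3 and the NR4A genes. The epithelial and stromal markers had gaps of -1.57 and -1.72, in the direction of Egr1 and Egr2. What part these cells had in the gaps was not tested.

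Against control replicate 2, whose T cell markers (mean 11.34) were close to those of the conditional arrays (10.97 to 11.21), all 6 genes were lower on every conditional array, as were 31.2% of all genes. Control replicate 2 differed from the conditional arrays in other lists: heat shock genes averaged 12.23 on it against 10.52 to 10.59, macrophage, monocyte and dendritic cell markers 6.86 against 7.49 to 8.25, and the conditional median relative to it was -1.94 for heat shock genes, -0.42 for B and plasma cell markers and -0.39 for epithelial markers. The part of these in the calls was not tested. Without control replicate 1, limma called 4 of the 6 lower, Egr2 (adjusted p = 0.0147), Nr4a1 (adjusted p = 0.0273), Egr3 (adjusted p = 0.0390) and Nr4a2 (adjusted p = 0.0480), where 2.77% of all genes were called lower. Egr1 and Nr4a3 were not called in that limma fit (adjusted p = 0.622 and 0.0908). Without control replicate 2, Egr1 (adjusted p = 0.0159) and Egr2 (adjusted p = 0.0021) were called lower and Nr4a3 (adjusted p = 0.0197) higher in limma, where 16.5% of all genes were called lower and 11.0% higher. Each of these fits rests on 1 control array, which is assumed to vary as the conditional arrays do. Egr2 alone among the 6 was called lower with either control array left out, and it did not pass with both in the fit.

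The 3 conditional arrays were more alike than the controls for these genes, and they shared an order. Conditional replicate 3 was the lowest of them for 5 of the 6 genes, all except Egr3, where 20.7% of all genes had that order. The spread over the conditional arrays was 0.61 for Egr1 and 0.56 for Nr4a2, at the 94.7 and 93.4 percentiles of all genes, and 0.20 for Egr2, at the 42.0 percentile. Conditional replicate 3 also had the lowest mean of stromal and endothelial markers, 8.49 against 9.55 and 9.25 in replicates 1 and 2, and the highest mean of macrophage, monocyte and dendritic cell markers, 8.25 against 7.49 and 7.50. Its B and plasma cell markers (8.43 against 8.96 and 9.15) and epithelial markers (7.47 against 7.92 and 7.70) were also the lowest of the conditional arrays, and its T cell markers (11.21 against 10.97 and 11.06) the highest. The part of these markers in the order was not tested.

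**Figure D3:**
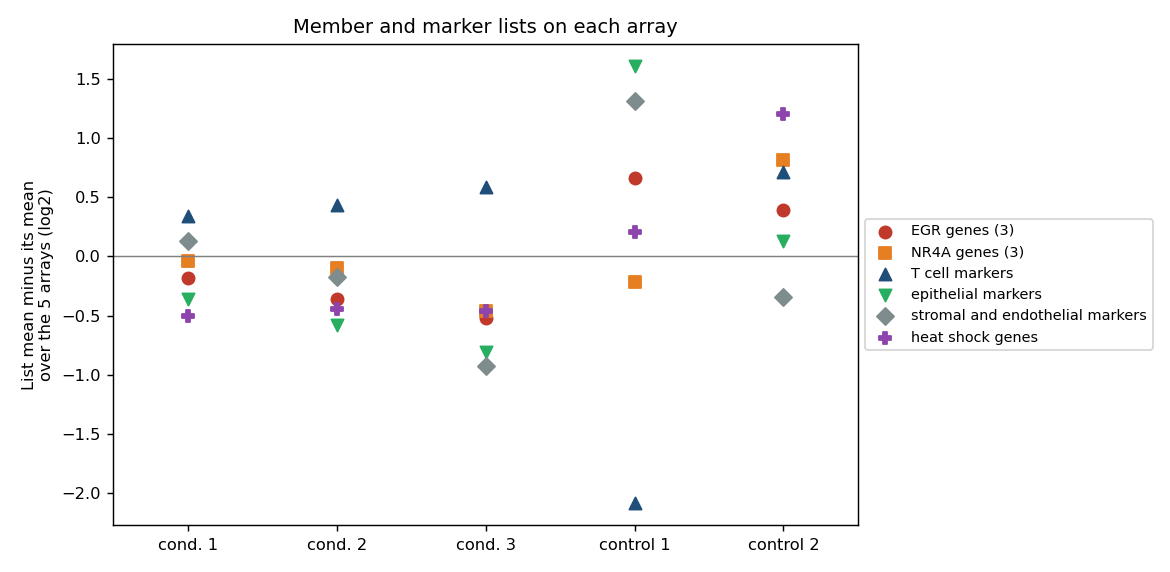
Mean log2 level of each list on each array, minus that list's mean over the 5 arrays (vertical axis). EGR genes are high on both controls, NR4A genes on control replicate 2, heat shock genes most on control replicate 2, and T cell markers are low and epithelial and stromal markers high on control replicate 1.

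Promoter sequences are shown for Egr2, the gene with the largest difference, and for the NR4A genes. No Egr3 window was available. Egr1, whose control gap of -0.90 was wider than that of Nr4a1 (0.52), was left out. Egr2 is the only EGR gene shown, so these sequences do not compare the EGR genes as a group with the NR4A genes. RefSeq windows (GRCm38.p6) are shown for 4 of the 6 genes. The 250 bases before the annotated start are given 5′ to 3′ on the gene's strand. They lie at chr10:67537619-67537868 (plus strand) for Egr2, chr15:101266596-101266845 (plus) for Nr4a1, chr2:57124004-57124253 (minus) for Nr4a2 and chr4:48045055-48045304 (plus) for Nr4a3. For Egr2, 5 starts are annotated and the window belongs to the first of 3 that lie close together. The annotated gene begins before the window for Egr2 (67534469) and Nr4a1 (101253902), and inside it for Nr4a3 (48045078). Capitals mark the core of the cyclic AMP response element bound by CREB (TGACG, on either strand) and the CArG box bound by serum response factor.
Egr2: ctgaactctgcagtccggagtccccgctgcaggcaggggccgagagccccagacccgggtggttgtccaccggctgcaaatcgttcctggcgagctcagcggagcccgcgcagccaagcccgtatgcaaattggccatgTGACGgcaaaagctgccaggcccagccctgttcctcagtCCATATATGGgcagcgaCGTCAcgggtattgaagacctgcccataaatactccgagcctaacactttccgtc
Nr4a1: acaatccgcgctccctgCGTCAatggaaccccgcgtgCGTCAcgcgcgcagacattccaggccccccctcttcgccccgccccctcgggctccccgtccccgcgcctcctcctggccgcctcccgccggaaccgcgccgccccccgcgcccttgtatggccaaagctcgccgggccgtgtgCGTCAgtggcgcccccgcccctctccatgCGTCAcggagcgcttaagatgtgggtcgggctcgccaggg
Nr4a2: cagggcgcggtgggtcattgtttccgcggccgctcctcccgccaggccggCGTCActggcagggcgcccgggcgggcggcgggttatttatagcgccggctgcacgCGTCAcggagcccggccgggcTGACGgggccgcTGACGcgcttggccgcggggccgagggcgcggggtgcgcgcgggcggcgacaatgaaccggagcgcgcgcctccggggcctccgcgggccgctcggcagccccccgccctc
Nr4a3: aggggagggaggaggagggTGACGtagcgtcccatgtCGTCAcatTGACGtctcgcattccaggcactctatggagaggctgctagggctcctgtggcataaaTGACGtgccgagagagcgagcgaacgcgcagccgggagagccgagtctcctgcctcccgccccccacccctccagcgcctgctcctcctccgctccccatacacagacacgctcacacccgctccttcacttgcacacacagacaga
Each NR4A window held 4 TGACG matches. At least 4 were found in 0.137% of 32851 mouse windows of this length, and in 0.370% of the 9178 windows with a GC content of at least 60%. The Egr2 window held 2 such matches, beginning 111 and 55 bases before the start, where 3.90% of all windows and 7.54% of those with a GC content of at least 60% held 2 or more. It also held a CArG box that begins 72 bases before the start and was present in 1.47% of windows, and none of the NR4A windows held one. A binding site of the EGR factors themselves, GCGNGGGCG on either strand, occurred once each in the Nr4a1 and Nr4a2 windows and in 4.70% of all windows. Those 2 windows had a GC content of 74.4% and 80.0%, against a median of 52.4% over all windows. The share of this site among windows of high GC content was not computed. The NFAT core GGAAA, on either strand, occurred once each in the Egr2 and Nr4a2 windows and in 55.6% of all windows, and the MEF2 site was in none of the 4 windows and in 0.508% of all. No matches of different motifs overlapped in these windows. These are matches of letters and not evidence of binding.

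The partners of the EGR factors did not follow one direction. Nab1 and Nab2 encode corepressors that bind EGR proteins, and Nab2 is itself induced by them. Nab2 was at 9.49, 9.28 and 9.34 in conditional replicates 1, 2 and 3, and at 9.36 and 10.10 in control replicates 1 and 2. Like Nr4a2, it was level with control replicate 1 and below control replicate 2, and the difference of -0.36 did not pass (limma, adjusted p = 0.562). Nab1 was at 10.45, 10.66 and 10.65 in conditional and at 10.01 and 10.25 in control cells, above both controls but not past the test at 0.46 (limma, adjusted p = 0.237). Egr4, the remaining EGR family gene, lay between 7.05 and 7.37 in conditional cells and at 7.17 and 7.43 in control cells, a difference of -0.10.

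Of the other immediate-early genes, 1 of 30 fell and none rose in limma over all genes, 14 lay fully below both controls and 4 fully above. Over all genes, 0.0451% fell and 0.371% rose in limma, 13.1% lay fully below and 17.4% fully above. The list median was -0.47, against 0.03 for all genes, and -0.26 and -0.57 against control replicates 1 and 2 alone. Fos, the AP-1 subunit gene, was the one that fell, by 1.56 on the log2 scale, from 11.48 ± 0.0091 (SD, n = 2) to 9.92 ± 0.215 (SD, n = 3; limma, adjusted p = 0.0448), with both controls alike. The Fos call was lost after another quantile normalization, with array weights, with the replicate block and without any 1 conditional array (limma, adjusted p = 0.0572, 0.167, 0.109 and 0.171 to 0.350). Fosb at -1.07, Maff, a small MAF factor gene, at -1.05 and Ier2 at -0.85 were next by p and did not pass (limma, adjusted p = 0.0765, 0.0834 and 0.0938). The heat shock genes, which tissue dissociation also induces, had a median of -1.23 over 9 measured genes of 11, with 1 lower and none higher past the test and 6 fully below both controls. Hspb1, which encodes a small chaperone, fell by 2.50 (limma, adjusted p = 0.0496, but 0.0639 after another quantile normalization, 0.0527 with the robust variance prior, 0.0510 with every probe set tested, 0.192 with array weights and 0.147 to 0.379 without any 1 conditional array), and Hspa1a was at -1.78 (limma, adjusted p = 0.0546). Dnajb1 and Hsph1, cochaperone and chaperone genes, differed by -1.31 and -1.74. The heat shock list averaged 10.52 to 10.59 on the conditional arrays, 11.23 in control replicate 1 and 12.23 in control replicate 2, and the part of handling in the levels of the EGR and NR4A genes was not tested.

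Genes upstream of the EGR and NR4A promoters, a list of serum response factor, MEF2, CREB and NFAT family genes and their regulators, had a median of 0.02 over 23 measured genes of 24. None passed, 6 lay fully above and 4 fully below both controls, where 17.4% and 13.1% of all genes did. Hdac4, which encodes a histone deacetylase that represses MEF2 targets, was at 0.94 (limma, adjusted p = 0.0893), Crtc2, a CREB coactivator gene, at 0.61 (limma, adjusted p = 0.0992), Crem, a CREB family gene with activator and repressor forms, at 0.71, and Nfatc3 at 0.72. Genes of the Ras and ERK arm and its brakes had a median of 0.39 over 16 measured genes of 20, with none past the test, 8 fully above and 1 fully below both controls. The one below was Spry1, a feedback inhibitor of this arm, at 8.81, 8.69 and 8.22 in conditional and at 10.88 and 9.91 in control cells. Its difference of -1.82 did not pass (limma, adjusted p = 0.119). Sos2, a Ras exchange factor gene, and Nras were at 0.87 and 0.71, and the kinase gene Braf was at 0.47.

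Genes described as targets of EGR2 and EGR3 in T cells had a median of -0.0005 over 18 measured genes of 19. In limma 2 of them rose and none fell, where 0.371% of all genes rose and 0.0451% fell. Tnfrsf9, the costimulatory receptor 4-1BB, was at 12.37, 12.29 and 12.10 in conditional and at 10.05 and 10.37 in control cells, and rose by 2.04 (limma, adjusted p = 0.0294). Cblb, a ubiquitin ligase gene that limits T cell activation, rose by 0.96 (limma, adjusted p = 0.0497). Neither passed with array weights (limma, adjusted p = 0.103 and 0.137) or without any 1 conditional array (0.168 to 0.303 and 0.271 to 0.354). With both controls and all conditional arrays unweighted, Cblb passed in the fit with an intensity trend and in none of the other alternatives at this threshold (limma, adjusted p = 0.0502 to 0.347). Both were higher in cells where Egr2 and Egr3 read lower. Id3, an inhibitor of E proteins induced by EGR factors in thymocytes, went with Egr2, at 8.45, 8.38 and 7.76 in conditional and 10.54 and 9.35 in control cells, a difference of -1.75 that did not pass (limma, adjusted p = 0.170). Itch, another ubiquitin ligase gene, was at 0.42. In all, 4 of the 18 lay fully above and 2 fully below both controls, where 17.4% and 13.1% of all genes did.

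Genes linked to NR4A factors in regulatory and exhausted T cells had a median of 1.03 over 14 genes. None passed the test, 9 lay fully above both controls and none fully below, against 17.4% and 13.1% of all genes. Havcr2, the TIM-3 receptor gene, was at 1.76 (limma, adjusted p = 0.0617), Tigit, an inhibitory receptor gene, at 1.56, and Ikzf4 and Ikzf2, which encode the regulatory T cell factors EOS and HELIOS, at 1.12 and 1.53. Relative to control replicate 1, in which T cell markers were low, the median was 1.45, and relative to control replicate 2 it was 0.41. NFAT-dependent activation genes had a median of 0.45 over 15 genes, with none past the test, 5 fully above and none fully below both controls. Csf2, the cytokine GM-CSF, was at 0.96 (limma, adjusted p = 0.0697), Tnfsf11, the RANK ligand gene, at 1.40, Il2ra at 1.89 and Tnf at 1.40. Relative to control replicates 1 and 2 the list median was 0.84 and 0.15. Csf2 read low, at 7.37 to 7.58 in conditional cells. In control cells it was at 6.46 and 6.64, under every array median over all probe sets (7.12 at the lowest). Surface and reporter genes of T cell activation had a median of 1.39 over 11 measured genes of 12 (2.20 and 0.35 against control replicates 1 and 2). Tnfrsf9 was the 1 that rose, where 0.371% of all genes rose, none fell and 6 lay fully above both controls. Icos and Tnfrsf4, costimulatory receptor genes, differed by 1.53 and 1.66, and Cd44, the gene of the sorted marker, by 0.81 (limma, adjusted p = 0.115).

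**Figure D4:**
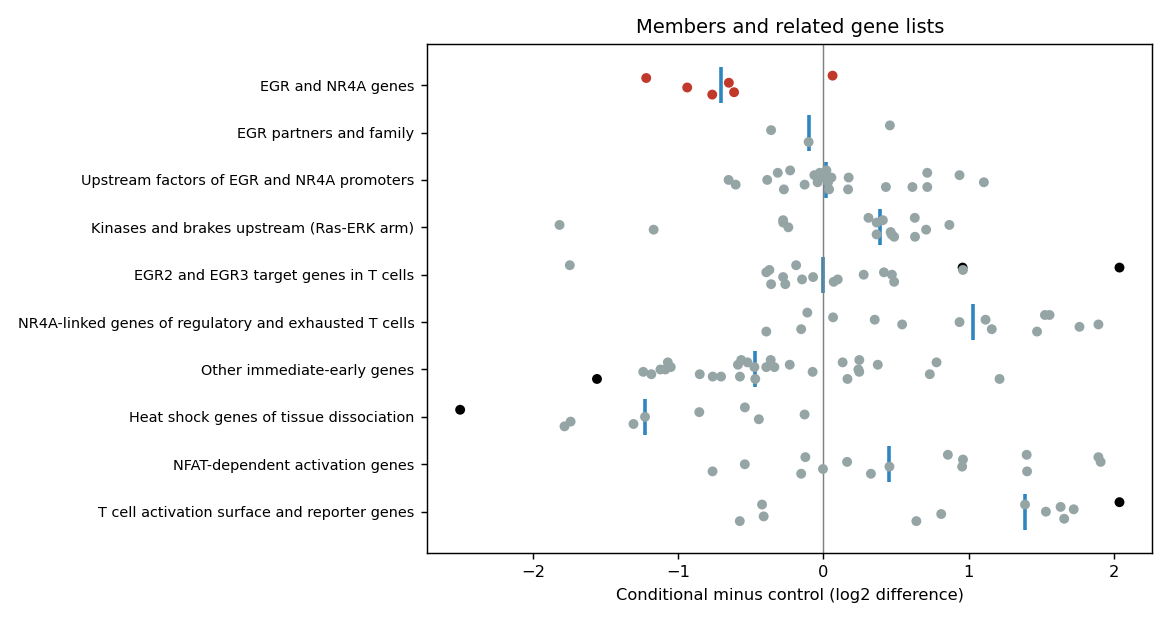
Conditional minus control log2 difference (horizontal axis) of every measured gene of each list, with the list median as a blue bar. Red points are the 6 EGR and NR4A genes, black points passed an adjusted p of 0.05 in limma over all genes, and grey points did not. Of the lists plotted, the medians farthest below 0 are those of the heat shock genes (-1.23), the EGR and NR4A genes (-0.71) and the other immediate-early genes (-0.47), and the NR4A-linked and surface activation lists have medians above 1.

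Likeness of pattern was measured as the root mean square difference between log2 values centred on each gene's own mean, over the 5 arrays. Among the 6 genes, the closest pair was Egr3 and Nr4a1, at 0.191, and the farthest was Egr1 and Nr4a3, at 0.822. Nr4a1 was closer to Egr3 and to Nr4a2 (0.290) than to Nr4a3 (0.557), and Egr1 was closest to Egr2 (0.324). Over all named genes other than these, the nearest to Egr1 were Tmem198b (0.0644), Heg1 (0.0740) and Epb41l1 (0.0837). The nearest to Egr2 were Sccpdh (0.0594), Armcx2 (0.0733) and Atp10b (0.0992), and the nearest to Egr3 were Pax5 (0.0394), the B cell lineage factor gene, Ube2cbp (0.0476) and Bcl9l (0.0505). Lpin1 (0.0535), Itga6 (0.0887) and Btbd19 (0.0945) were nearest to Nr4a1. Nr4a2 was nearest to Cd83 (0.102), an activation marker of lymphocytes and dendritic cells, H2-Ob (0.143) and Nfkbid (0.157), an inducible nuclear regulator of NF-kB. Nr4a3 was nearest to Cd72 (0.0655), the gene of a B cell surface protein, Relt (0.0718) and Ppm1j (0.0835). Cd83 was at 10.78, 10.82 and 10.24 in conditional and at 10.38 and 11.66 in control cells, the same split of the controls as Nr4a2.

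Marker lists of other cell types were read on the same arrays, with no call against background to tell presence from absence. Over all genes, 17.4% lay fully above and 13.1% fully below both controls. B and plasma cell markers had a median of -0.28 over 9 measured genes of 10, with 3 fully below both controls, and list means of 8.43 to 9.15 in conditional and of 9.43 and 9.02 in control cells. Cd79a and Cd79b, the signalling chains of the B cell receptor, were at 8.69 to 9.78 and 9.75 to 10.27 in conditional cells and at 9.66 and 10.16, and 10.23 and 10.52, in control replicates 1 and 2. Macrophage, monocyte and dendritic cell markers had a median of 0.72 over 12 genes, 7 of them fully above both controls, with Cd14 at 2.41, Csf1r at 1.15 and Adgre1 at 0.68. Granulocyte and mast cell markers had a median of 0.21, with 7 of 12 fully above and 1 fully below, and S100a8, S100a9 and Mpo at 1.32, 1.35 and 0.48. The granulocyte and mast cell list averaged 5.96 to 6.64, under every array median over all probe sets, and the mean levels of Adgre1, S100a8 and Mpo ranked at the 22.9, 31.3 and 39.3 percentiles. No gene of these 3 lists passed. T cell markers had a median difference of 1.02 (2.33 and -0.37 against control replicates 1 and 2), with none of 12 past the test and 2 fully above. Epithelial markers had a median of -1.44 (-2.34 and -0.39), with 8 of 14 fully below. Past the test, 2 were lower, Krt20 and Cdhr5 (limma, adjusted p = 0.0327 and 0.0366), where 0.0451% of all genes fell. Krt20 was at -1.72 and -1.61, and Cdhr5 at -1.31 and -1.51, against control replicates 1 and 2. Against control replicate 2, Krt8 differed by -0.14, and the conditional means of Epcam and Krt18 were higher. Stromal and endothelial markers had a median of -1.03 (-2.41 and -0.27), with none of 12 past the test and 5 fully below. B cells and myeloid cells express EGR and NR4A genes when activated, as do epithelial and stromal cells, and the part of each in the levels above was not tested.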

How the data were processed

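Gene expression was measured on 5 arrays, grouped by genotype labels. The deposited values are log2 signals that the authors made with oligo's RMA, as the submitters' processing notes say. This method corrects background, quantile-normalizes and summarises probes, which removes global shifts and compresses differences of dim genes. Tool versions and the genome build: not given in the sources used here. Array medians were 7.12 to 7.23. The number of arrays limits precision.

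Of 34760 probe sets, 21640 had 1 gene symbol in the platform annotation, 1321 several and 11799 were unnamed here. Each of 19937 genes was read at its probe set with the highest mean. Groups were compared with limma (version 3.58.1, R 4.3.3) without covariates, p-values were adjusted by Benjamini-Hochberg over all genes, and the threshold was 0.05. Residual degrees of freedom were 3. The procedure was tested on simulated data.

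Members and the 15 lists (213 genes, 200 measured) were chosen with earlier results of these data known, so lists are described by counts and medians. Named list genes were those past the threshold (up to 6), filled by smallest p up to 4. For marker lists they were the first 3 genes and those past the threshold. Per member they were the 3 genes of most similar pattern, leaving out predicted genes, small RNAs and receptor segments. Alternatives changed the normalization, dim-gene filter, probe set, variance model, weights, threshold, replicate block and each array in turn.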

Additional observations from a re-analysis of the deposited data

How the results depend on the processing

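The count of 83 genes moved to 48 after another quantile normalization, 13 with array weights and 374 at an adjusted p of 0.1. With each array left out it ranged from 0 to 5474. It was 1217 without control replicate 1, 5474 without control replicate 2 and 0 without any 1 conditional array (limma, with 1417 to 2037 genes at an unadjusted p of 0.05). Egr2 passed after median centring (-1.13, adjusted p = 0.0426) and at the threshold of 0.1 (-1.22). With each array left out, differences ranged from -1.22 to -0.32 for Egr1, -1.37 to -1.07 for Egr2, -0.84 to -0.46 for Egr3, -1.20 to -0.68 for Nr4a1, -1.24 to 0.0072 for Nr4a2 and -0.60 to 0.73 for Nr4a3. Nr4a3 also turned with array weights, to -0.020. The causes were not tested. Over the 6 genes and their alternatives, 84 of 96 values kept direction and side of the threshold, 9 newly passed and 3 reversed. The difference could not change with the dim-gene filters, probe set choices, intensity trend, robust variance prior or the threshold of 0.1, as each gene had 1 probe set. Apart from Egr2 after median centring and at 0.1, the values that newly passed came from fits with 1 control array.

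Equal replicate numbers occur in 2 pairs, and the labels do not say whether they mark a shared experiment. Deviations from the group means were correlated at 0.400 for replicate 1 and -0.287 for replicate 2. With 2 control arrays, the deviations of 1 are those of the other with the sign changed. The correlations are therefore not independent and cannot decide whether the arrays were paired. The replicate block, which drops the information of conditional replicate 3, gave 69 genes, and differences of -0.59 for Egr1, -1.17 for Egr2, -0.63 for Egr3, -0.81 for Nr4a1, -0.43 for Nr4a2 and 0.15 for Nr4a3, none past the threshold in limma.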
